A study of Homo sapiens with 4 samples.

Results

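Kinesins and dyneins are the motor proteins that walk along microtubules, and tubulins are the subunits from which microtubules are built. Their genes were read here from RNA-seq of TK6 cells, a human lymphoblastoid cell line that is heterozygous at the thymidine kinase locus, after culture under simulated microgravity or static conditions. The genes were taken by symbol: kinesins (KIF followed by a digit or C), kinesin light chains (KLC), cytoplasmic dynein chains and dynein light chains (DYNC and DYNL), and alpha, beta and gamma tubulins with the gamma-tubulin complex proteins (TUBA, TUBB and TUBG). Of the 11415 gene symbols in the deposited table, 56 matched, with 102 of the 22375 RefSeq records. Each gene was represented by the record with the highest mean count.

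Both conditions used the same bioreactor, a High Aspect Ratio Vessel, the same line and a seeding density of 200000 cells per ml, and differed in rotation. The vessel turned at 12 rpm for simulated microgravity and did not turn for the static control, and cells were collected after 48 hours. Each condition has 2 libraries, called replicates 1 and 2, and nothing in the labels says that they came from separate cultures, so a p-value here covers the spread between these libraries and no more. The model is 1 cell line in rotating suspension culture on the ground, and in bulk RNA fewer cells of a type, such as cells in mitosis, and less RNA per cell cannot be told apart.

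Counts over all records ranged from 112609031 to 126368530 per library, and the 56 genes held 0.750% to 0.778% of the counts over 1 record per gene. The lowest count of any of the 56 genes was 131 to 176 per library. The B lymphoid markers MS4A1, CD79A, CD79B, PAX5 and CD74 were listed and HLA-DRA, BLK and CR2 were not, while 0 of 5 T cell markers and 0 of 4 myeloid markers were listed. MS4A1, the B cell surface protein CD20, was at 1016 to 1255 CPM (the count of a gene relative to its library total, here without TMM scaling) in the 4 libraries. Of the epithelial and fibroblast markers, 1 of 4 each was listed, KRT8 at 76.8 to 81.2 CPM and COL1A1 at 7.35 to 9.23 CPM on the same scale, and their part in the results was not tested. Of the neuronal markers, TUBB3, a beta tubulin that is also a member here, was the 1 of 4 that was listed.

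Microtubules grow and shrink by gain and loss of alpha- and beta-tubulin dimers, and new ones start from ring complexes that hold gamma-tubulin. Most transport kinesins carry vesicles and organelles toward the plus ends of microtubules, cytoplasmic dynein carries cargo toward the minus ends, and a separate set of kinesins builds the mitotic spindle, moves chromosomes and serves in cytokinesis. Many genes of that mitotic set are transcribed late in the cell cycle, when 2 promoter elements, the CCAAT box bound by NF-Y and the cell cycle homology region (CHR), are known to time them. By role, the 56 genes divided into 12 mitotic kinesins, 10 transport kinesins, 4 kinesin light chains, 4 ciliary and other kinesins, 4 chains of cytoplasmic dynein 1, 4 dynein light chains, 1 chain of cytoplasmic dynein 2, 5 alpha tubulins, 5 beta tubulins and 7 genes of the gamma-tubulin ring complex.

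Most promoters of the mitotic kinesins held those elements and few promoters of the transport motors did, which is a description of sequence with no test. Promoters of 250 bases before to 50 bases after the transcription start came from a set of RefSeq promoters (GRCh38.p14) in which 48 of the 56 genes were matched. Not matched were KIF13B, KIF21B, KIFC2, KLC2, KLC4, KIF27, DYNLL2 and TUBGCP4, most of them transport motors. The promoters were searched on both strands for the CCAAT box and for the CHR in its main form, TTTGAA. Another form of the CHR, TTTAAA, was searched as well. CCAAT was found in 9 of 12 mitotic kinesin promoters, TTTGAA in 8 and both in 7. Among the 9 matched promoters of transport kinesins and kinesin light chains, CCAAT was found in 3, TTTGAA in 1 and both in 1. Of all 27305 promoters, 35.7% held CCAAT, 15.4% held TTTGAA and 6.08% held both. TTTAAA was found in 4 of the 12 mitotic kinesin promoters, 0 of the 9 transport promoters and 12.3% of all promoters. A match is a description of letters and not a tested site.

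The promoters printed next belong to 5 mitotic kinesins, 2 of which (KIF20A and KIF18A) had the highest fold changes in their class, and to 2 transport kinesins, KIF1C and KIF21A, as a contrast. They do not stand for their classes. All 5 held CCAAT and a form of the CHR, but among the mitotic kinesins not printed KIF2A held no match, KIF15 and KIF2C no CCAAT and KIF22 no CHR. Among the transport kinesins not printed, KIF5B held CCAAT and TTTGAA, and KIF1B and KIF3B held CCAAT. Each runs from 110 bases before the transcription start to 30 bases from it, on the strand of the gene, with matches of the motifs in capitals. On the opposite strand the CCAAT box reads ATTGG, and the CHR in its main form reads TTCAAA:
KIF11 (chr10:92593020-92593159, plus strand): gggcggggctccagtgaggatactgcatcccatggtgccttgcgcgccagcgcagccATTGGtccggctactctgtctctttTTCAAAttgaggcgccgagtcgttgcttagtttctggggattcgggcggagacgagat
KIF18A (chr11:28108127-28108266, minus strand): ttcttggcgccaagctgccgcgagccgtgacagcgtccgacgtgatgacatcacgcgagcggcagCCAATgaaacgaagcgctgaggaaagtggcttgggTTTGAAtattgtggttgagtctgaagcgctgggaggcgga
KIF18B (chr17:44947744-44947883, minus strand): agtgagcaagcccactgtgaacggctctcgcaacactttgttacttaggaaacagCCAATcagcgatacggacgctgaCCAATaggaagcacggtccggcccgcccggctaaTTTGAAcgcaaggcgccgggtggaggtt
KIF20A (chr5:138179002-138179141, plus strand): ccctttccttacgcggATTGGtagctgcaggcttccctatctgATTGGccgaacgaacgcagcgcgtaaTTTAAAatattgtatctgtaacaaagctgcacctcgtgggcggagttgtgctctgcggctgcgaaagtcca
KIF4A (chrX:70289994-70290133, plus strand): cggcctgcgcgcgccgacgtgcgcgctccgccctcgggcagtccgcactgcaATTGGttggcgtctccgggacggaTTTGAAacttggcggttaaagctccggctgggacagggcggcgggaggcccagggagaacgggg
KIF1C (chr17:4997840-4997979, plus strand): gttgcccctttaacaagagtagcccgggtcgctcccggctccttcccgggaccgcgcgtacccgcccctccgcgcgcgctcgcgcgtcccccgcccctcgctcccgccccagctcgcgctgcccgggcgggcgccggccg
KIF21A (chr12:39443091-39443230, minus strand): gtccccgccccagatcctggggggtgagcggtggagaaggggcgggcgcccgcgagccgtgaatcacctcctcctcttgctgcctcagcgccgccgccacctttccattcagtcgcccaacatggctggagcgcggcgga

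In these windows the CCAAT box lay upstream of the CHR in each of the mitotic kinesins printed. It began 53 bases before the start in KIF11 and 58 bases before it in KIF4A, with TTTGAA or its complement at 28 and 34 bases. KIF18A held them at 45 and 10 bases. KIF20A held 2 CCAAT boxes, at 94 and 67 bases, and TTTAAA at 41 bases in place of TTTGAA. The windows of KIF1C and KIF21A held no match.

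**Figure D1:**
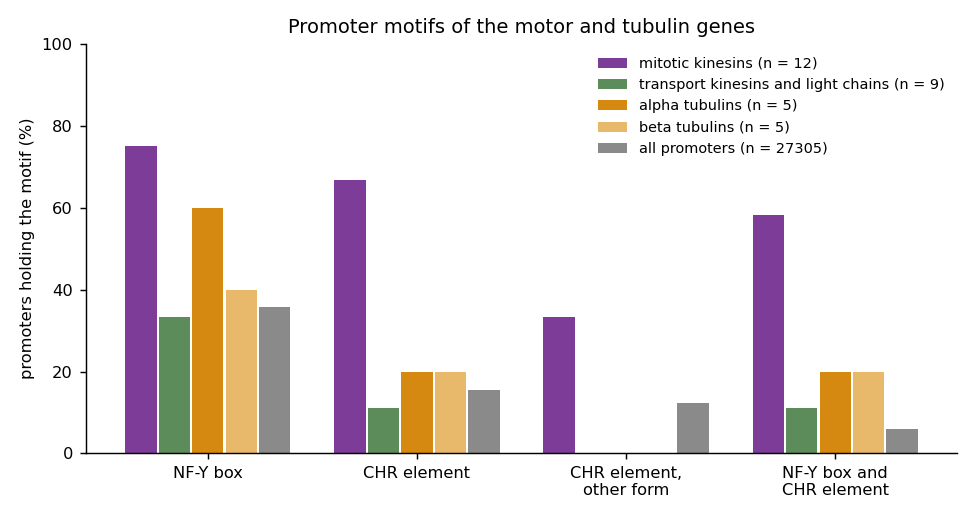
Share of promoters (vertical axis, percent) that hold the NF-Y box (CCAAT), the CHR element (TTTGAA), its other form (TTTAAA) or the box and TTTGAA together, for 4 classes of genes and all RefSeq promoters (bars). The mitotic kinesins stand above all promoters in each of the 4 groups of bars, at 75.0%, 66.7%, 33.3% and 58.3%.

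Levels were compared between genes per kilobase of exon, using the MANE Select or canonical GENCODE transcript of each gene. The ends of the record lay within 200 bases in all of that transcript's ends for 40 of the 56 genes, so the scale is approximate for the rest. The differences were largest in KLC1 (15336 bases), DYNC1H1 (5690 bases), DYNLL2 (5285 bases), KIF13A (4522 bases) and KIF2A (3885 bases). TUBA1C (1270 bases) was also among the rest. The ranks and shares of all these genes are uncertain. TUBA1B, the main alpha tubulin of most dividing cells, was the highest of the 56 genes, at a mean of 1436 CPM per kilobase. It made 76.8% to 78.1% of the alpha-tubulin level in the 4 libraries, followed by TUBA1C at 9.72% to 10.1%, TUBA4A at 6.29% to 6.93% and TUBA1A at 5.42% to 5.94%. TUBA4A and TUBA1A kept this order in every library, but the same lengths were used in each. Their record ends differed from the transcript by 571 and 244 bases, so their order is uncertain. TUBA4B was under 1%.

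Among the 5 beta tubulins that were listed, TUBB4B made 89.8% to 90.4% of the summed level per kilobase, TUBB2A 4.93% to 5.44%, TUBB3 2.47% to 2.96%, TUBB2B 1.0% to 1.3% and TUBB1, the platelet form, 0.839% to 0.988%. TUBB and TUBB6 were not analysed here, so these are shares of the listed forms and not of all beta tubulin. The alpha tubulins TUBA1A, TUBA1B and TUBA1C are near-identical copies, as are TUBB2A and TUBB2B, and TUBG1 and TUBG2, and reads that mapped to several places were removed by the authors, so the levels of these genes are uncertain. TUBA4A and TUBA4B overlap by 674 bases on opposite strands, and without strand their reads cannot be told apart there.

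Among the kinesins, the highest levels per kilobase were those of the mitotic KIF2C and KIF22, at means of 80.5 and 79.4 CPM per kilobase, whose libraries overlapped. The listed span of KIF22 is overlapped over 14673 bases by the listed spans of 10 other symbols, 7 of them on the same strand (SLX1A and SULT1A3 among them). Spans were compared and not exons, so whether these records share reads with KIF22 was not tested. KIF2C takes tubulin off microtubule ends at the kinetochore, and KIF22 pushes chromosome arms. KIF11, the motor that drives spindle poles apart, followed at 46.9 CPM per kilobase and overlapped KIF5B, the kinesin-1 heavy chain and highest transport kinesin, at 46.0. The lowest mitotic kinesins were KIF18B, KIF4A and KIF14 at 17.6, 17.5 and 17.4 CPM per kilobase, which overlapped each other and lay above the means of the other 9 transport kinesins. The next transport kinesins were KIF21B, KIF1C and KIF21A at 14.5, 14.1 and 13.3 CPM per kilobase, and the lowest was KIF13A at 1.37. KIF7, a ciliary kinesin of Hedgehog signalling, was the lowest of all 56 genes at 0.733 CPM per kilobase. Among the dynein genes, the light chain DYNLL1 was highest at 195.5 CPM per kilobase and DYNLL2 lowest at 5.70. The rank of DYNLL2 is uncertain, because the ends of its record and of the transcript used for length differed by 5285 bases.

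**Figure D2:**
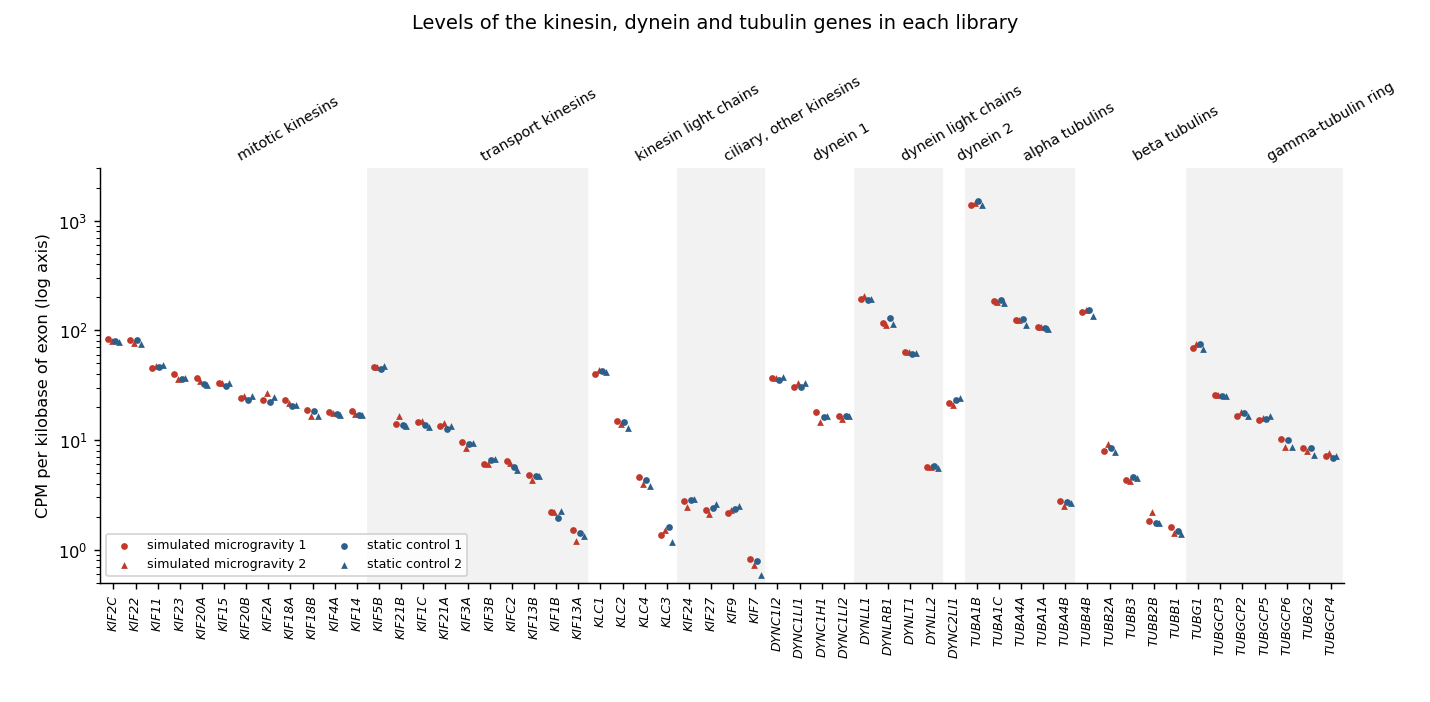
Level of each of the 56 genes in each library (vertical axis, CPM per kilobase of exon, log axis), grouped by role and ordered within a role by mean level. Points are single libraries (red, simulated microgravity; blue, static control); the 4-library means run from 0.733 for KIF7 to 1436 for TUBA1B, and the 4 points of a gene lie close together against the differences between genes.

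The conditions were compared gene by gene with edgeR's quasi-likelihood test over all 11415 genes, at a Benjamini-Hochberg adjusted p (FDR) under 0.1. None of the 56 genes passed: 0 rose and 0 fell under simulated microgravity, against 27 genes that rose (0.237% of all genes) and 99 that fell (0.867%). DESeq2 also called 0 of the 56. At an unadjusted p under 0.05 in edgeR, 2 of the 56 were higher, KIFC2 and KIF1C, and 0 were lower, against 3.43% of all genes higher and 4.64% lower. At the background rates of the FDR, fewer than 1 call would fall among 56 genes.

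The 95% interval of each gene gives a range for its change that rests on the spread between these libraries. In edgeR's model the spread of each gene is drawn toward that of the other genes in the table. Intervals from the spread of each gene by itself were not computed. The fold changes ran from -0.19 (KIF27) to 0.21 (TUBB2B) on the log2 scale, with a median of 0.03 beside 0.00 for all genes, and 37 were positive and 19 negative. Their standard errors were 0.053 to 0.190. The 95% interval lay within 1.5-fold either way for all 56 genes, against 94.8% of all genes. It lay within 1.3-fold for 50 of them, against 79.9% of all genes. The median level was also higher in the 56 genes, 72.8 CPM against 34.3 in all genes, and its part in these shares was not tested. In 42 of the 56 (75.0%), the libraries of 1 condition differed from each other by more than the conditions did, and 76.2% of all genes were the same in this respect. Both simulated microgravity libraries lay above both controls in 12 of the 56 genes and below them in 6, beside 17.9% and 18.1% of all genes, and 38 genes overlapped.

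**Figure D3:**
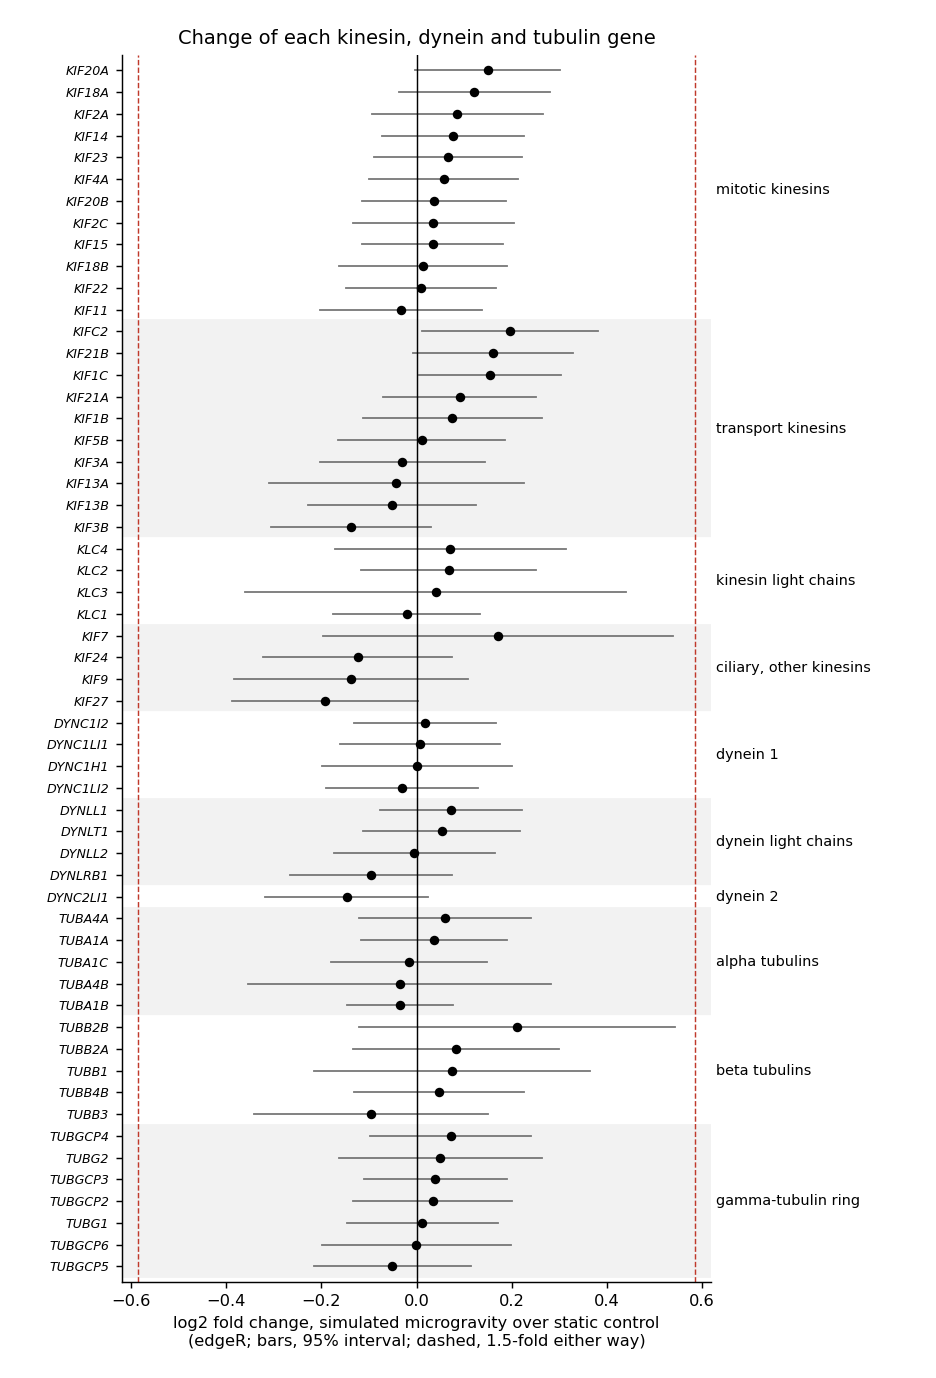
Log2 fold change of each of the 56 genes, simulated microgravity over static control (horizontal axis; points, edgeR estimates; bars, 95% intervals), grouped by role. The estimates run from -0.19 to 0.21 and every interval lies inside the dashed lines at 1.5-fold either way.

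Of the 12 mitotic kinesins, 0 rose and 0 fell. Their log2 fold changes were small: 11 were positive, with a median of 0.05 and a range from -0.03 (KIF11) to 0.15 (KIF20A). In 4 of them, KIF20A, KIF18A, KIF14 and KIF4A, both simulated microgravity libraries lay above both controls, and in 0 below, beside 17.9% and 18.1% of all genes. Of all genes, 50.2% had a positive estimate. KIF20A, which brings the chromosomal passenger complex to the central spindle in anaphase (hg19 chr5:137514417-137523404), was at 113 and 107 CPM in simulated microgravity replicates 1 and 2 and at 100.4 and 98.2 CPM in static control replicates 1 and 2. All 4 values lay within a narrow band, and the log2 fold change was 0.15 ± 0.072 (SE), with an edgeR adjusted p of 0.635.

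KIF18A, which shortens the microtubules at kinetochores and so damps chromosome movement, was at 78.9 and 74.9 CPM against 70.1 and 71.3 in the controls (log2 fold change 0.12 ± 0.075, edgeR adjusted p = 0.792). KIF14, a motor of cytokinesis, was at 134 and 127 CPM against 123 and 124, and its replicate libraries under simulated microgravity were about as far apart as the conditions. KIF11, the only mitotic kinesin with a negative estimate, was at 229 and 236 CPM against 232 and 244, and the conditions overlapped. KIF2A, a relative of KIF2C, spread the most in simulated microgravity, with 184 and 212 CPM against 178 and 194. KIF23, the kinesin subunit of centralspindlin, was at 147 CPM in simulated microgravity replicate 1 and at 132 to 135 in the other 3 libraries. The other mitotic kinesins, KIF15, KIF18B, KIF20B, KIF22, KIF2C and KIF4A, had log2 fold changes from 0.01 to 0.06 and edgeR adjusted p-values of 0.954 to 0.993.

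Of the 10 transport kinesins, 0 rose and 0 fell, 6 estimates were positive, and the median was 0.04 (-0.01 when static control replicate 1 was left out, 0.09 when replicate 2 of that condition was). They held both of the unadjusted p-values under 0.05. KIFC2, a motor with its head at the C-terminal end (hg19 chr8:145691738-145699499), was at 21.2 and 20.1 CPM in simulated microgravity and at 18.6 and 17.5 CPM in the controls. The log2 fold change was 0.20 ± 0.088 (edgeR unadjusted p = 0.0387, adjusted p = 0.570), the smallest adjusted p of the 56 genes. The KIFC2 record overlaps that of FOXH1 on the opposite strand by 385 bases. KIF1C, a kinesin-3 that moves vesicles (hg19 chr17:4901243-4931694), was at 116 and 119 CPM against 108 and 104 (log2 fold change 0.15 ± 0.071, edgeR unadjusted p = 0.0437, adjusted p = 0.584). In both genes the simulated microgravity libraries lay above both controls, as in 17.9% of all genes.

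KIF21B, a kinesin that also limits microtubule growth (hg19 chr1:200938514-200992828), was at 131 and 154 CPM in simulated microgravity and at 129 and 126 CPM in the controls, so replicate 1 was near the controls and replicate 2 stood apart from the other 3. With all libraries the log2 fold change was 0.16 ± 0.080 (edgeR adjusted p = 0.654). Without simulated microgravity replicate 2 it was 0.04 (edgeR adjusted p = 0.958). Without simulated microgravity replicate 1 it was 0.27 with an edgeR adjusted p of 0.00364, in a fit in which 877 genes were called in place of 126 and the lone library was assumed to vary like the controls. This was the only call among the 56 genes in any of the fits that left out a library.

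KIF3B, a kinesin-2 motor subunit that pairs with KIF3A, had the lowest estimate of the class, at 36.8 and 37.1 CPM against 39.8 and 41.4 (log2 fold change -0.14 ± 0.080, edgeR adjusted p = 0.749). Its partner KIF3A was at 60.7 and 53.4 CPM against 57.6 and 58.8, so the subunits were not separated in the same way, and KIF3A overlapped between conditions. KIF21A, the relative of KIF21B, was at 84.7 and 90.5 CPM against 79.7 and 84.8, and KIF1B at 23.8 and 23.9 against 21.1 and 24.2. Both overlapped. KIF5B was at 270.0 and 272 CPM against 260.5 and 277, with a log2 fold change of 0.01, and KIF13A and KIF13B had estimates of -0.04 and -0.05.

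The kinesin light chains link KIF5 motors to cargo. Of the 4, 0 passed the test, all overlapped between conditions, and the median log2 fold change was 0.05. The median was 0.17 when static control replicate 1 was left out and -0.03 when replicate 2 of that condition was. KLC1 was at 102 and 110 CPM against 109 and 106. KLC2, KLC3 and KLC4 had estimates of 0.07, 0.04 and 0.07. KLC3 was the least abundant of the 56 genes in CPM, with values of 2.11 to 2.89, and had the widest standard error, 0.190.

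The ciliary and other kinesins had the lowest median of the kinesin classes, -0.13 over 4 genes, and again 0 passed the test. KIF27, a relative of the Hedgehog kinesin KIF7 (hg19 chr9:86451615-86536380), was at 16.6 and 15.3 CPM in simulated microgravity and at 17.5 and 19.0 CPM in the controls. Its log2 fold change of -0.19 ± 0.093 had an edgeR adjusted p of 0.637, and both simulated microgravity libraries were below both controls. The same was seen in KIF24, which holds back cilium formation (17.7 and 15.4 CPM against 17.9 and 18.1), and in KIF9, a kinesin of motile cilia (7.13 and 7.60 CPM against 7.86 and 8.35). Of all genes, 18.1% were lower without overlap. KIF7 itself was at 3.78 and 3.31 CPM against 3.63 and 2.66 and overlapped, with an estimate of 0.17 that ran from -0.04 to 0.41 when a library was left out. These are among the lowest genes of the family in CPM, and their intervals were wide: 1 of the 4, KIF24, lay within 1.3-fold either way.

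The 4 chains of cytoplasmic dynein 1 had the smallest estimates of any class, from -0.03 to 0.02, with a median of 0.00. DYNC1H1, the heavy chain that carries the motor (hg19 chr14:102430865-102517135), was at 358 and 294 CPM in simulated microgravity and at 323 and 328 CPM in the controls. The controls lay between the 2 simulated microgravity libraries, and the log2 fold change was 0.00 ± 0.095 (edgeR adjusted p = 0.999). It was -0.15 without simulated microgravity replicate 1 and 0.14 without replicate 2 of that condition. DYNC1LI2, a light intermediate chain that holds adaptors, was at 72.0 and 67.4 CPM against 71.1 and 71.3. DYNC1I2, the intermediate chain that binds dynactin, and DYNC1LI1 had estimates of 0.02 and 0.01.

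The dynein light chains are small subunits that several other complexes share. DYNLL1 was at 129 and 137 CPM against 126 and 127 (log2 fold change 0.07, edgeR adjusted p = 0.918), and DYNLRB1 at 77.3 and 73.5 against 85.9 and 75.4 (log2 fold change -0.10, edgeR adjusted p = 0.888). DYNLRB1 overlapped between conditions, and static control replicate 1 was its highest library. DYNLT1 had an estimate of 0.05 and DYNLL2 one near 0. DYNC2LI1, a light intermediate chain of dynein 2, the motor of retrograde transport in cilia, was at 30.3 and 29.4 CPM against 32.5 and 33.6. Its log2 fold change was -0.15 ± 0.081 (edgeR adjusted p = 0.730) with no overlap between conditions, and 18.1% of all genes were lower without overlap. DYNC2H1, the heavy chain of dynein 2, was not analysed here.

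The alpha tubulins had a median log2 fold change of -0.01 over 5 genes and the beta tubulins one of 0.07 over 5, with 0 calls in each. Leaving out each library in turn moved the alpha median from -0.06 to 0.04 and the beta median from 0.02 to 0.13. TUBA1B (hg19 chr12:49521567-49525304) was at 2261 and 2355 CPM in simulated microgravity and at 2463 and 2268 CPM in the controls. Static control replicate 1 was its highest library, and the log2 fold change of -0.04 ± 0.053 (edgeR adjusted p = 0.967) had the smallest standard error of the 56 genes. TUBA1C was at 518 and 511 CPM against 537 and 503, TUBA4A at 257 and 254 against 259 and 231, and TUBA4B at 3.85 and 3.45 against 3.80 and 3.68. All 3 overlapped between conditions. TUBA1A was the exception, with 180 and 178 CPM against 176 and 173, but the step was small (log2 fold change 0.04, edgeR adjusted p = 0.980).

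TUBB2B had the highest estimate of the 56 genes and 1 of the widest intervals. It was at 3.49 and 4.23 CPM in simulated microgravity and at 3.34 in both control libraries, so simulated microgravity replicate 2 alone stood apart (log2 fold change 0.21 ± 0.158, edgeR adjusted p = 0.854). TUBB2A, its near-identical copy, was at 12.9 and 14.9 CPM against 13.6 and 12.7 and was also highest in simulated microgravity replicate 2. TUBB4B was at 229 and 238 CPM against 239 and 213, and TUBB1 at 5.31 and 4.73 against 4.88 and 4.64, with overlap in both. TUBB3 was at 7.37 and 7.14 CPM against 7.86 and 7.66, lower in both simulated microgravity libraries, with a log2 fold change of -0.10 and an edgeR adjusted p of 0.947.

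The 7 genes of the gamma-tubulin ring complex, which starts new microtubules at the centrosome, had a median of 0.03 (-0.01 to 0.08 with a library left out) and 0 calls. TUBG1, the main gamma tubulin, was at 112 and 120.2 CPM against 120.4 and 109.7, and TUBG2 at 15.0 and 14.3 against 15.2 and 13.1. Both overlapped. The complex proteins TUBGCP2 to TUBGCP6 had estimates from -0.05 (TUBGCP5) to 0.07 (TUBGCP4). TUBGCP3 was the 1 of the 7 without overlap, at 100.8 and 100.3 CPM against 97.2 and 98.5, and 17.9% of all genes were higher without overlap. TUBGCP6 followed replicate number and not condition, at 61.9 and 51.9 CPM against 61.0 and 52.8.

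Mitotic and transport motors were then set side by side. The median log2 fold change of the 12 mitotic kinesins was 0.05, and that of the 14 transport motors (transport kinesins and kinesin light chains) was also 0.05, a difference of -0.01 beside an SD of 0.033 between the libraries of a condition. The summed level of the mitotic kinesins was 1767 and 1741 CPM in simulated microgravity and 1686 and 1713 CPM in the controls. That of the transport motors was 954 and 978 CPM against 929 and 937. Both sums were higher in both simulated microgravity libraries, by a few percent, and their ratio was 1.85 and 1.78 against 1.81 and 1.83, so the ratio overlapped between conditions. With the chains of dynein 1 counted among the transport motors the ratio was 1.092 and 1.100 against 1.086 and 1.083, higher in both simulated microgravity libraries by about a percent, so whether the ratio overlapped rested on where dynein 1 was counted.

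The difference of medians was negative only with all libraries. Leaving out each library in turn gave 0.00 to 0.10, positive each time, and adding dynein 1 to the transport motors gave 0.03. The classes differed in how their members spread: the transport motors ran from -0.14 to 0.20 and the mitotic kinesins from -0.03 to 0.15. For each gene the wider of its gaps between replicate libraries, over the 2 conditions, was taken. The median of these was 0.17 in the former and 0.09 in the latter on the log2 scale, and the transport motors include genes of lower CPM.

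Other genes of the microtubule system were taken from 5 lists. Of these 84 genes, 0 rose and 0 fell, beside 0.237% and 0.867% of all genes, so a count of 0 does not set the lists apart. The largest estimates were in the mitotic spindle partners, 24 genes, of which 22 had a positive estimate, with a median of 0.07. Both simulated microgravity libraries lay above both controls in 14 of the 24 and below them in 1, beside 17.9% and 18.1% of all genes, of which 50.2% had a positive estimate. CENPE, the kinetochore motor of the kinesin-7 family, is a mitotic kinesin whose symbol lies outside the rule. It was at 293 and 271 CPM in simulated microgravity and at 228 and 234 CPM in the controls, with a log2 fold change of 0.29 ± 0.084 and an edgeR adjusted p of 0.170. AURKA, the spindle pole kinase, was at 262 and 263 CPM against 225 and 223 (log2 fold change 0.23 ± 0.081, edgeR adjusted p = 0.352). Neither passed the test.

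**Figure D4:**
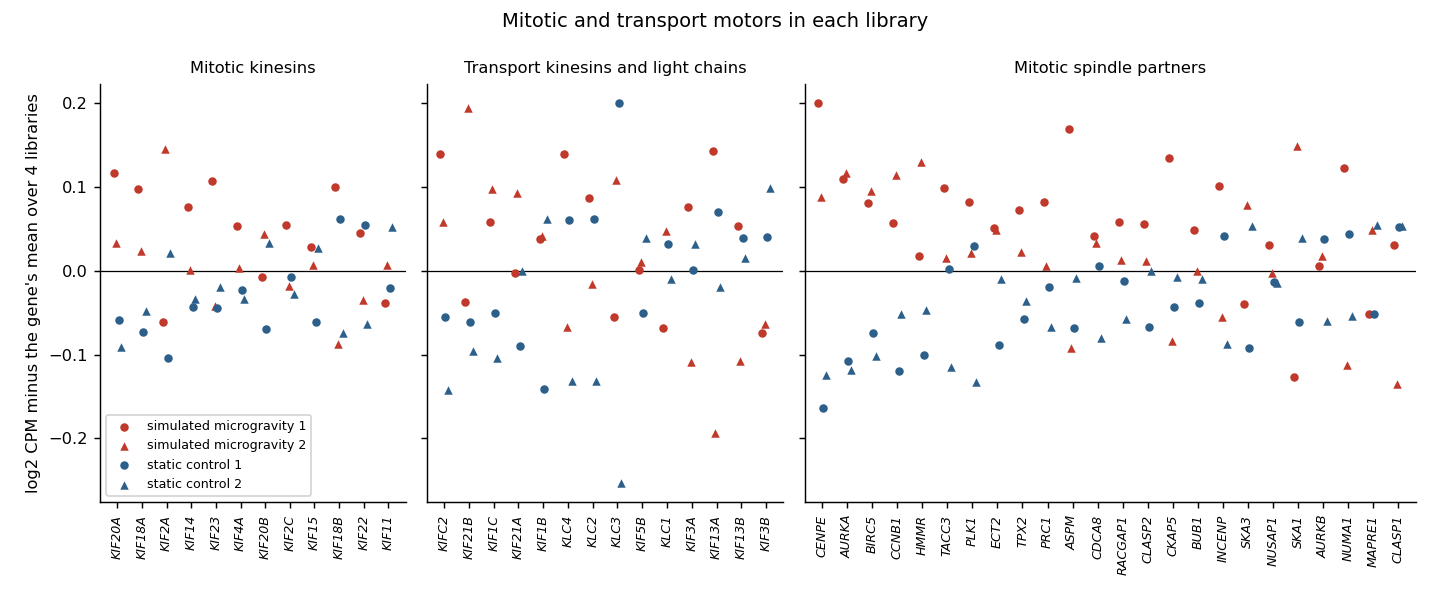
Log2 CPM of each gene in each library minus the mean of that gene over the 4 libraries (vertical axis), for the 12 mitotic kinesins, the 14 transport motors and the 24 mitotic spindle partners, ordered by fold change. Red points are simulated microgravity and blue points static control; the colours separate most clearly in genes at the left of the spindle partners such as CENPE (0.29), and mix in most of the transport motors.

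In the other 4 lists the medians were near 0. Dynactin and dynein adaptors (18 genes) had a median of 0.00, kinesin adaptors and cargo linkers (11 genes) one of 0.01, tubulin folding and modification genes (15 genes) one of 0.01, and microtubule dynamics genes (16 genes) one of -0.02. The 2 genes with the smallest p are given for each list with their log2 fold changes. Of the dynein partners they were DCTN2, a dynactin subunit (-0.12), and SPDL1, an adaptor at kinetochores (0.10). Of the kinesin partners they were MAPK8IP3, a kinesin-1 adaptor (-0.15), and KTN1, which binds kinesin (0.12). In the folding list they were ARL2, a GTPase of the tubulin folding pathway (0.15), and TBCEL, a relative of folding cofactor E (-0.17). In the dynamics list they were NEDD1, which anchors the gamma-tubulin ring complex (0.16), and MAP1S, a microtubule-associated protein (0.22). The edgeR adjusted p-values of these 8 genes ran from 0.595 (NEDD1) to 0.853 (SPDL1). NEDD1 was at 99.5 and 103 CPM in simulated microgravity and at 90 and 91.7 CPM in the controls.

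The choice of record changed no call and no sign of an estimate, but it could change whether the conditions overlapped. Of the 56 genes, 20 had more than 1 record, and in 0 of these did the records differ in the sign of the estimate. The spread of the estimate over the records of a gene had a median of 0.01 and was largest in KLC4, at 0.09 on the log2 scale. Of the 102 records, 0 passed the test over all 22375 records, of which 1.32% passed, and the smallest adjusted p of a record was 0.524 in edgeR. In that fit 3 records had an unadjusted edgeR p under 0.05. They were those of KIFC2 and KIF1C, which were higher, and 1 of KIF27, which was lower (log2 fold change -0.195, edgeR unadjusted p = 0.0450). Records of a gene share reads and are not independent.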

How the data were processed

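RNA was sequenced from 2 libraries of TK6 cells under simulated microgravity and 2 of static controls, all on the same sequencing run and lane per the file headers. The authors aligned reads to hg19 with TopHat (the processing notes name TopHat2 2.0.8, the methods another release), dropped reads that mapped to several places, and used Bamutils to count the remaining reads of each RefSeq record. The deposited counts are whole numbers, not normalized. CPM columns, deposited by the authors, divide each count by the library total of their counted records, and were used only to check the counts. Columns of the authors' own comparison (fold change, mean level, p-value and FDR) were not used. Columns mapped to no sample numbered 0.

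The test was edgeR's (version 4.0.16, R 4.3.3) with TMM, filterByExpr ( which removed 0 genes) and the quasi-likelihood model, with condition as the only factor, on 1 record per symbol and, separately, on all records, with Benjamini-Hochberg adjustment over the whole table. The same filter on record level removed 0 records. TMM factors were 0.994 to 1.01 and the biological coefficient of variation 6.77%. In the text, CPM use TMM-scaled library sizes from the table with 1 record per gene, except those of cell type markers, which use unscaled totals. The fitting script was tested on simulated data. Alternatives were DESeq2 1.42.0, voom in limma 3.58.1, edgeR's robust fit, other scalings, a filter on CPM above 5 in at least 2 libraries, the record listed first, the replicate number as a block, and leaving out each library.

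The members and lists were chosen with earlier results of these data known, so lists are described by counts and medians with no test. Named genes are the 20 members with the smallest p, the most abundant and most changed of each role, all tubulins, and the 2 neighbouring genes with the smallest p per list; other members are given so that each is accounted for. The promoter motifs were counted in RefSeq promoters (GRCh38.p14).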

Additional observations from a re-analysis of the deposited data

How the results depend on the processing

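None of the 56 genes passed the test under DESeq2, voom, edgeR's robust fit, other scalings, the CPM filter, the record listed first or the replicate block, and 0 fell in any fit. When each library was left out in turn, 0 to 1 rose and 0 fell, the 1 being KIF21B without simulated microgravity replicate 1 (log2 fold change 0.27, edgeR adjusted p = 0.00364). The genes called over the whole table ranged from 70 without static control replicate 1 to 877 without simulated microgravity replicate 1, beside 126 with all libraries. Mitotic minus transport medians were -0.01 with all libraries, 0.00109 to 0.0963 with a library left out and 0.0324 with dynein 1 among the transport motors. Class medians with a library left out ran from -0.01 to 0.09 in the transport kinesins, -0.03 to 0.17 in the kinesin light chains, -0.06 to 0.04 in the alpha tubulins, 0.02 to 0.13 in the beta tubulins and -0.01 to 0.08 in the gamma-tubulin ring complex. The causes were not tested. Deviations of libraries with the same replicate number correlated at 0.08 across genes, and with the number as a block 96 genes passed, of which 0 were among the 56, with a smallest adjusted p of 0.461 (KIFC2).

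With 2 libraries per condition, the test could not separate changes of the sizes seen here from the spread between libraries. The intervals bound them at 1.5-fold for all 56 genes and at 1.3-fold for 50, with the spread of each gene drawn toward that of other genes. TUBB, TUBB6, KIFC1 and DYNC2H1 were not analysed here, levels of near-identical tubulins are uncertain, and no protein or motor activity was measured.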
